A study of Mus musculus with 12 samples.

Results

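Interferon response genes are those that cells switch on when they sense type I, II or III interferon, the secreted alarm proteins of viral infection. A list of 35 such mouse genes was followed in sorted epidermal cells, and a member was counted when a probe set carried its symbol and no other. By that rule 32 of the 35 genes were measured, with 33 probe sets, out of 19938 symbols with a probe set of their own on the array. Isg15 and Gbp2 were read by probe sets shared with another symbol and Ifi44 had no probe set listed under its name, so those 3 genes have no value here. The values come from 12 arrays, with 3 arrays in each of 4 groups. One pair of groups is hair follicle bulge cells, a stem cell population sorted as bright for alpha6 integrin and positive for CD34, from Per1-Venus reporter mice aged 18 to 19 days, with about 20 mice pooled per array. They were separated into clock-positive cells (Venus bright) and clock-negative cells (Venus dim). The labels of both bulge groups name the Venus-high gate, and the groups here follow the sample titles. The other groups are basal cells of the interfollicular epidermis (IFE) of mice aged 1 year, 5 mice per array, either wild type or carrying an epidermal Bmal1 knockout (KO). The promoter that drives the epidermal deletion is not given in the sources used here. No agent was given to the mice before the cells were purified.

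Interferons bind receptors that activate the kinases JAK1 and TYK2, or JAK1 and JAK2 for interferon gamma. These phosphorylate transcription factors of the STAT family. A complex that holds STAT2 and IRF9 binds the interferon-stimulated response element, ISRE, in the promoters of target genes. The gamma-activated site, GAS, is another element found in such promoters. The targets include enzymes and RNA-binding proteins that block viral replication, the RNA sensors that start the response, proteins that restrain it, and the machinery that loads peptides onto MHC class I. In skin, keratinocytes, Langerhans cells and T cells can all express these genes.

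The RefSeq promoter windows (assembly GRCm38.p6, 250 bases before to 50 after each gene start) hold 27 of the 35 members. They were searched for an ISRE core, GAAANNGAAA or its reverse complement TTTCNNTTTC, and 13 of the 27 held at least 1 match (48.1%), against 3.44% of all 32851 windows. A GAS core, TTCNNNGAA, stood in 8 of the 27 windows and in 8.30% of all windows. The stretches around the ISRE matches of the 8 tested members that have one are shown because the 5 of them that were called in bulge cells went both ways. Matches are in capitals, overlapping matches run together, and each strand reads 5′ to 3′ along the gene.
Oas1a: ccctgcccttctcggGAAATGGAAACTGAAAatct
Rsad2: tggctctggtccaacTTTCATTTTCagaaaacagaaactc
Ifit3: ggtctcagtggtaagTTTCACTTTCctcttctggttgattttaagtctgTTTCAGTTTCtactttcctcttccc
Eif2ak2: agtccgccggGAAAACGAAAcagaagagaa
Ifih1: gaagagaatcGAAACAGAAAccgatctg
Ddx58: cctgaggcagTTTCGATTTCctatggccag
Stat2: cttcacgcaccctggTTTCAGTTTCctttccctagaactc
Bst2: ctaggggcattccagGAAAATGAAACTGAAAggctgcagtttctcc

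The Oas1a stretch lies at chr5:120907526-120907560 on the minus strand and holds 2 overlapping matches within the 250 bases before the start. Rsad2 (chr12:26456548-26456587, minus strand) holds 1 match and Ifit3 (chr19:34583358-34583431, plus strand) holds 2 separate ones. The matches of Eif2ak2 (chr17:78882535-78882564, minus), Ifih1 (chr2:62646206-62646233, minus) and Ddx58 (chr4:40239804-40239833, minus) lie just after the start. Those of Stat2 (chr10:128270261-128270300, plus) and Bst2 (chr8:71537572-71537617, minus) lie before it. The members are not all separate in the genome. Ifit1, Ifit2 and Ifit3 neighbour each other, as do Oas1a, Oas2 and Oas3. Psmb9 and Tap1 run in opposite directions from promoter windows that share 275 bases.

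The deposited values are log2 intensities. They carry an array median of 6.82 to 7.01 in the bulge set and 7.747 to 7.799 in the IFE set, and different probe sets are filled in the 2 sets, so levels are compared within a set only. The keratinocyte gene Krt5 was at 12.47 to 12.56 on the bulge arrays and 13.55 to 13.66 on the IFE arrays. Cd34, the bulge marker, was at 9.44 or more on every bulge array and at 6.73 or less on every IFE array. Per1 was 0.51 ± 0.07 (SE) higher in clock-positive cells. Arntl, the gene symbol of Bmal1, was at 9.27 to 9.47 on the wild-type arrays and at 9.55 to 9.85 on the KO arrays. Where its probe set lies relative to the deletion was not analysed here, so it checks no label. Nr1d1, a direct target of BMAL1, read 12.28 to 12.60 in wild type and 8.39 to 8.63 in the KO, a change of -3.98 ± 0.12 (adjusted p = 1.08e-05). P-values below measure the spread between pools of mice.

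Averaged over the 32 members on the deposited scale, neither comparison parted its groups. In bulge cells the mean log2 level was 7.12, 7.14 and 7.13 on clock-positive arrays 1 to 3 and 7.14, 7.12 and 7.14 on clock-negative arrays 1 to 3. The clock-positive mean was 7.132 ± 0.014 and the clock-negative mean 7.136 ± 0.010 (SD, n = 3 each), a difference of -0.0044. The sign and size of that difference moved with the scaling, to 0.138 after median centring, 0.0425 after quantile normalization and 0.0203 after cyclic loess, against a pooled SD of 0.0124 on the deposited scale. In the IFE set the mean was 8.32, 8.37 and 8.54 on wild-type arrays 1 to 3 and 8.52, 8.52 and 8.38 on KO arrays 1 to 3. The KO lay 0.067 above wild type, less than the pooled SD of 0.100. Wild-type array 3 stood above all KO arrays, and KO array 3 stood with the lower wild-type arrays. The means were also taken relative to each array's median over genes, with 1 probe set per gene (median centring used all probe sets). The difference was then -0.0138 in bulge cells, and 0.110 in the IFE set with a pooled SD of 0.070. Arrays of the groups still overlapped in both sets.

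**Figure D1:**
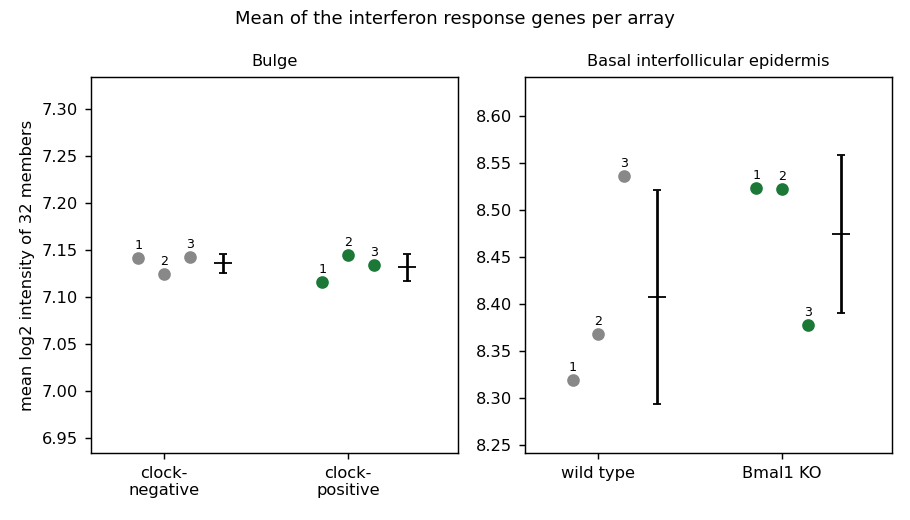
Mean log2 intensity of the 32 members on each array (numbered points), for bulge cells and for basal interfollicular epidermis, with group mean and SD as bars; both panels span the same height. Bulge arrays lie between 7.12 and 7.14, while the epidermis arrays range from 8.32 to 8.54 with the genotypes overlapping.

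The first question was which members part bright from dim reporter cells of the bulge. Members moved in opposite directions: the antiviral effectors Oas1a, Oas2, Ifit3 and Rsad2 fell in clock-positive cells, while Trim25, Ifi35, Irf9, Eif2ak2, Ifih1, Tap1 and Parp14 rose. The 10 RNA-binding effectors averaged 0.187 lower in clock-positive cells and the 5 genes of the ISG15 system and its regulators 0.248 higher. On the deposited scale arrays did not overlap in these or in the other 4 role groups. Relative to each array's median over all genes, those of antigen processing overlapped (difference 0.061, pooled SD 0.043). The median change of all genes tested with levels from 6 to 7 was -0.20, and that of the 8 members tested there was -0.11. The RNA-binding mean is not matched to that level. It also takes in dimmer genes that were not tested, and Ifit3 and Isg20 from 7 to 8. The ISG15 group averaged 7.72 in clock-positive and 7.47 in clock-negative cells. Its mean rise is larger than the median change of all genes tested from 7 to 8, 0.11, but its genes were not all at that level. Trim25, at 0.57, lay from 8 to 9, where the median of all genes was 0.25, and Parp9 lay from 6 to 7. The median change of the 5 genes was 0.19. A filter on dim genes, set on the mean over the 6 arrays, kept 25 of the 32 members for testing. Of these 25, 7 rose and 4 fell in limma (adjusted p under 0.05, Benjamini-Hochberg over 13956 genes). That is 44.0% of the members tested. Of all genes tested 45.2% rose and 18.3% fell, or 63.5% in all, a larger share than of the members. At an unadjusted p under 0.05 stood 12 members and 67.8% of all genes. The median change of the 25 members was 0.06, against 0.15 for all genes tested.

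**Figure D2:**
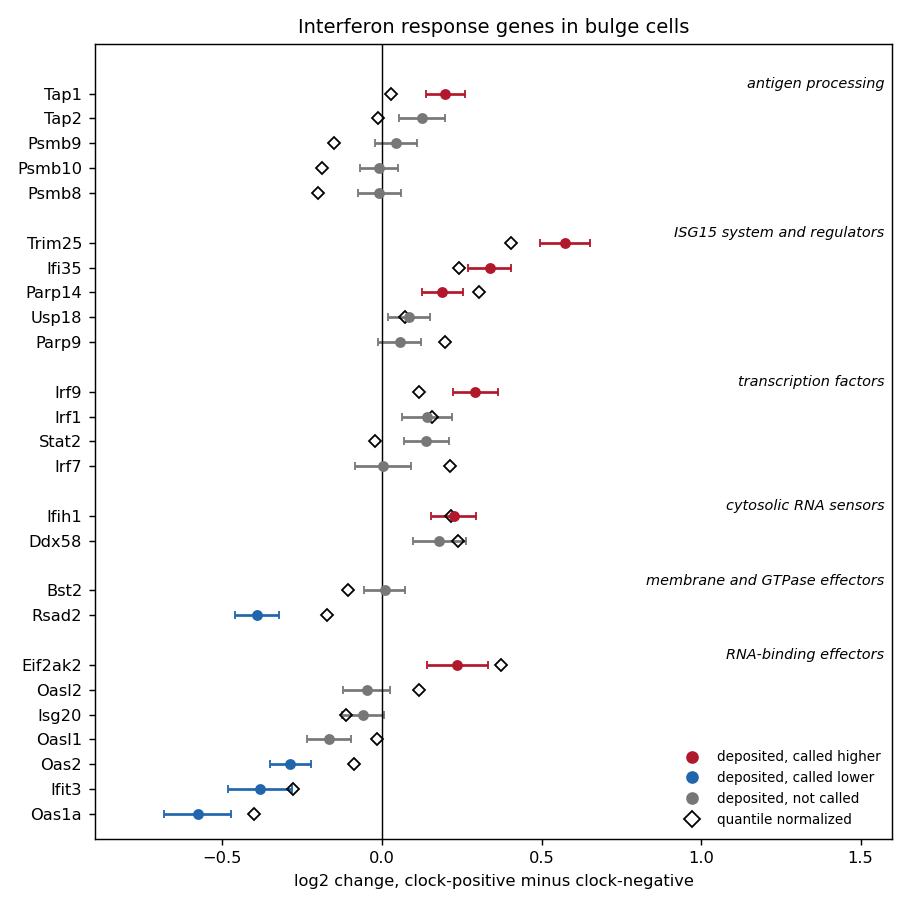
Log2 change (clock-positive minus clock-negative) of the 25 tested members, sorted by role, with standard errors from limma; colour shows the call on the deposited values and open diamonds the change after quantile normalization. Oas1a stands lowest at -0.58 and Trim25 highest at 0.57.

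Oas1a encodes an oligoadenylate synthetase, which on binding double-stranded RNA makes the messenger that activates RNase L. It read 6.38, 6.24 and 6.47 on clock-positive arrays and 6.72, 6.92 and 7.16 on clock-negative arrays. Every clock-positive array lay below every clock-negative array, and the gene fell by 0.58 ± 0.11 (1.49-fold, adjusted p = 0.00116). The Oas1 genes are close copies of each other, so the probe set may read more than Oas1a. Oas2, of the same enzyme family, read 6.39, 6.37 and 6.48 against 6.68, 6.65 and 6.76. It fell by 0.29 ± 0.06 (adjusted p = 0.00361), again with no overlap.

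Rsad2 encodes viperin, an enzyme of the endoplasmic reticulum and lipid droplets that makes a chain-terminating nucleotide. Its values were 6.12, 6.16 and 6.06 in clock-positive and 6.58, 6.41 and 6.52 in clock-negative cells. The groups did not overlap and the change was -0.39 ± 0.07 (adjusted p = 9.03e-04). Ifit3, a protein of the IFIT family that helps IFIT1 bind viral RNA, read 6.93, 6.91 and 6.70 against 7.06, 7.20 and 7.44. Its change was -0.38 ± 0.10 (adjusted p = 0.00736). Each of these 4 genes kept its call when any 1 bulge array was left out. All 3 of them with a promoter entry, Oas1a, Rsad2 and Ifit3, hold the ISRE core shown above, against 2 of the 6 with an entry among those that rose and 3 of the 11 among those not called. A match in these windows is a description of the sequence only.

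Of the other RNA-binding effectors tested, 1 rose and 3 did not pass. Eif2ak2 encodes PKR, the kinase that halts translation on sensing double-stranded RNA. It read 7.01, 7.21 and 6.96 in clock-positive and 6.97, 6.65 and 6.85 in clock-negative cells, so the groups overlapped. It was called higher by 0.24 ± 0.10 (adjusted p = 0.0493), and the call was lost without clock-positive array 1 or 2 or clock-negative array 2 or 3 (adjusted p up to 0.190). Oasl1 lay lower on every clock-positive array without passing, at -0.17 ± 0.07 (adjusted p = 0.0561). Oasl2 at -0.05 ± 0.07 and the exonuclease gene Isg20 at -0.06 ± 0.07 did not pass. Bst2, which encodes tetherin and holds budding virus at the cell surface, was at 0.01 ± 0.06.

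Trim25 had the largest rise. Its product is a ubiquitin and ISG15 ligase that acts on RIG-I. It read 8.89, 8.79 and 8.81 in clock-positive and 8.40, 8.12 and 8.24 in clock-negative cells. The arrays stood well apart, and the change was 0.57 ± 0.08 (1.49-fold, adjusted p = 2.46e-04). Ifi35, a leucine zipper protein induced by interferon, read 8.17, 8.11 and 8.01 against 7.70, 7.797 and 7.77. It rose by 0.34 ± 0.07 (adjusted p = 0.00187). Parp14, an ADP-ribosyltransferase, rose by 0.19 ± 0.06 (adjusted p = 0.0247), a call lost without any of the 3 clock-positive arrays or without clock-negative array 2 (adjusted p up to 0.0755). Its partner Parp9, at 0.06 ± 0.07, and Usp18, which removes ISG15 and blocks the type I receptor, at 0.08 ± 0.07, did not pass.

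Among the transcription factors Irf9, whose product binds DNA in the complex with STAT2, read 8.94, 8.93 and 8.81 in clock-positive and 8.64, 8.49 and 8.67 in clock-negative cells. It rose by 0.29 ± 0.07 (adjusted p = 0.00530) with no overlap. Stat2 at 0.14 ± 0.07, Irf1 at 0.14 ± 0.08 and Irf7, the factor that amplifies interferon alpha genes, at 0.00 ± 0.09 did not pass. A second probe set of Irf1 differed by -0.01. Of the RNA sensors Ifih1, which encodes MDA5, rose by 0.22 ± 0.07 (adjusted p = 0.0179) and lost the call without clock-positive array 2 or clock-negative array 2 (adjusted p up to 0.0711). Ddx58, which encodes RIG-I, was at 0.18 ± 0.08 (adjusted p = 0.0781).

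**Figure D3:**
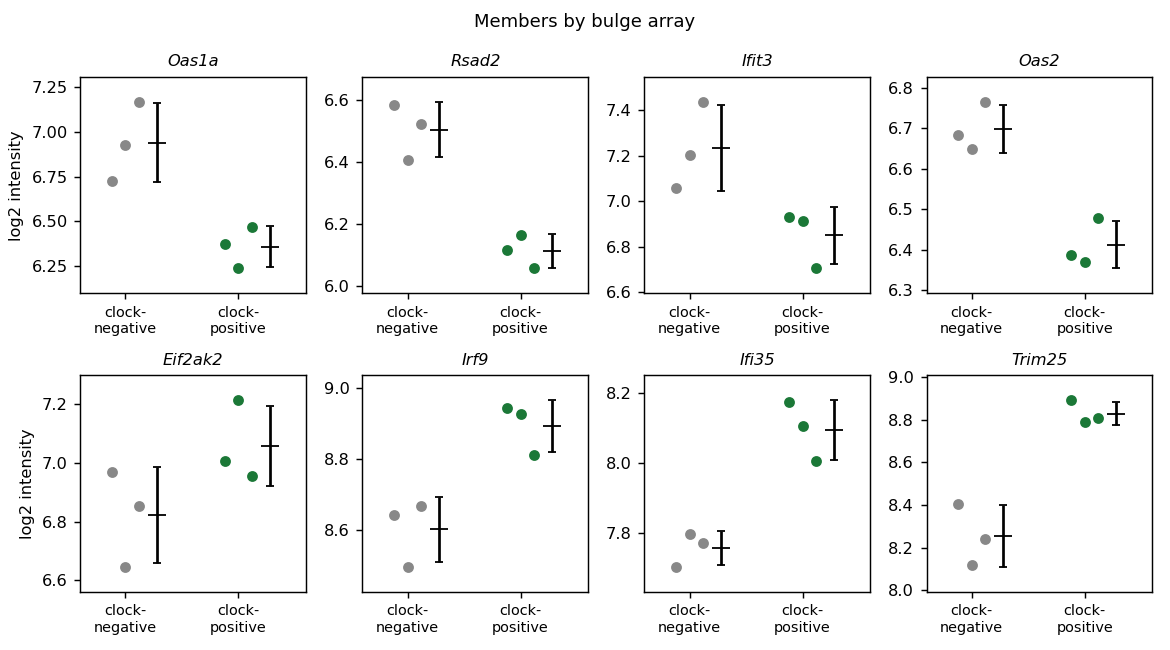
Log2 intensity of the 8 called members with the largest change on each bulge array (points), with group mean and SD as bars; each panel has its own vertical range. Oas1a, Rsad2, Ifit3 and Oas2 lie lower and Irf9, Ifi35 and Trim25 higher in all 3 clock-positive arrays, and the groups overlap for Eif2ak2.

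In antigen processing, Tap1, a subunit of the peptide transporter, rose by 0.20 ± 0.06 (adjusted p = 0.0159). Its call was lost without clock-positive array 1 or 3 or clock-negative array 3 (adjusted p up to 0.0625). Tap2, the other subunit, was at 0.12 ± 0.07. The immunoproteasome subunits Psmb8, Psmb9 and Psmb10 were at -0.01 ± 0.07, 0.04 ± 0.07 and -0.01 ± 0.06. Arrays of the groups did not overlap for 11 of the 25 members tested, 6 higher and 5 lower, against 69.2% of all genes (50.1% higher and 19.1% lower). Of the 7 members below the filter, Ifit2 at -0.30 (adjusted p = 0.00608) and Mx1 at -0.25 (adjusted p = 0.0211) were called lower when no filter was used, where 27.9% of all genes were. Ifit1, Oas3, Mx2, Gbp3 and Dhx58 were not called there, with changes from -0.18 to 0.07.

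Direction went with level on the array among all genes, and in part among the members. Values on the clock-positive arrays were more spread out (SD over probe sets 2.00 to 2.02) than on the clock-negative arrays (1.88 to 1.91). Of the 3156 genes with a mean log2 level from 6 to 7, 49.9% fell and 11.9% rose, with a median change of -0.20. Of the 3707 genes from 8 to 9, 65.2% rose and 4.59% fell, with a median of 0.25. Oas1a, Oas2 and Rsad2 lay in the lower band and Ifit3 just above it. Trim25 and Irf9 lay in the upper band. Oas1a, Oas2 and Rsad2 each fell by more than the median of the lower band, and Eif2ak2, also between 6 and 7, rose. The median change of the brighter members was below that of all genes of their level, though Trim25 and Irf9 each rose by more than the median of their band. From 8 to 9, 2 of 6 members rose, with a median change of 0.13. From 9 to 10, 1 of 3 members rose, with a median of 0.04, against 66.3% of all genes and a median of 0.24. The part of these array-wide shifts in the changes of the members was not tested beyond the scalings that follow.

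**Figure D4:**
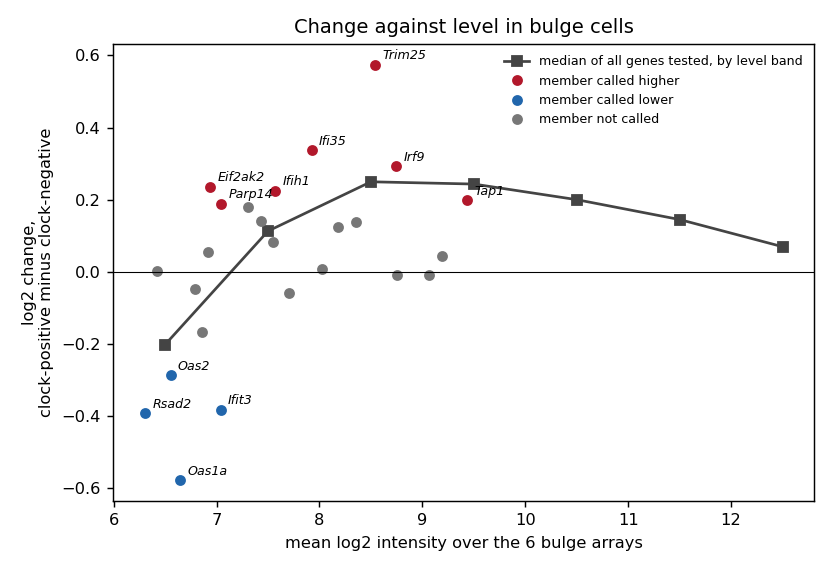
Log2 change against mean log2 intensity for the 25 tested members (points, coloured by call) with the median change of all tested genes in bands 1 unit wide (squares). The squares run from -0.20 at 6 to 7 up to 0.25 at 8 to 9 and down to 0.07 at 12 to 13. Trim25, Ifi35 and Eif2ak2 lie above the line while Oas1a, Rsad2, Oas2 and Ifit3 lie below it. Tap1, called higher, also lies below it.

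Calls of 5 members held under the deposited values, median centring, quantile normalization and cyclic loess: Oas1a lower, and Trim25, Ifi35, Parp14 and Eif2ak2 higher. After quantile normalization Oas1a was at -0.40 (adjusted p = 0.0221) and Trim25 at 0.41 (adjusted p = 0.00170). Rsad2 at -0.17 (adjusted p = 0.0883), Ifit3 at -0.28 (adjusted p = 0.0671), Oas2 at -0.09 (adjusted p = 0.291), Irf9 at 0.12 (adjusted p = 0.150) and Tap1 at 0.03 (adjusted p = 0.671) no longer passed there. Psmb8 and Psmb10 were called lower after quantile normalization, at -0.20 (adjusted p = 0.0363) and -0.19 (adjusted p = 0.0366). After cyclic loess Psmb8, Psmb9 and Psmb10 were all called lower (Psmb9 at -0.18, adjusted p = 0.0485), with Oas1a and Ifit3. In all 5 members rose and 3 fell after quantile normalization, where 29.5% and 12.2% of all genes did, and 4 rose and 5 fell after cyclic loess, where 25.3% and 15.8% did. Median centring called 14 higher and 3 lower, against 64% and 9.71% of all genes.

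Among the interferon receptors and their kinases, 9 were tested and 6 rose and 0 fell in clock-positive cells, where 45.2% of all genes rose and 18.3% fell, with a median change of 0.30 against 0.15 for all genes. Ifnar2, a chain of the type I interferon receptor, read 7.70, 7.69 and 7.83 against 7.39, 7.08 and 7.16 and rose by 0.53 ± 0.08 (adjusted p = 5.47e-04). Its partner Ifnar1 rose by 0.32 ± 0.06 and the kinase gene Jak2 by 0.51 ± 0.10. Ifnar2 and Jak2 lay at levels from 7 to 8, where 39.5% of all genes rose, and Ifnar1 from 8 to 9, where 65.2% did. The counts of the pathway lists were not set against genes of like level, and are given on the deposited values only. Upstream of interferon, 7 of 12 sensors, adaptors and kinases rose (58.3%) and 2 fell (16.7%), near the 45.2% and 18.3% of all genes. Mavs, the mitochondrial adaptor of RIG-I and MDA5, rose by 0.56 ± 0.08 (adjusted p = 2.69e-04) and Tbk1, the kinase that activates IRF3, by 0.32 ± 0.06. Tlr9, the endosomal DNA receptor, fell by 0.50 ± 0.08 (adjusted p = 7.06e-04). Of the interferon genes themselves 6 of the 15 with a probe set of their own were tested and 4 fell, among them Ifnl2 at -0.69 ± 0.10 and Ifna2 at -0.47 ± 0.09. Interferon alpha genes are near copies, so those probe sets may read several of them.

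Of 22 other interferon-induced genes 6 rose (27.3%) and 5 fell (22.7%), against 45.2% and 18.3% of all genes. Ifitm1, a membrane protein that blocks viral entry, fell by 0.51 ± 0.08, while Nmi, a binding partner of Ifi35, rose by 0.48 ± 0.10 and Tor3a by 0.40 ± 0.07. In the MHC class I list 4 of 12 rose (33.3%) and 2 fell (16.7%). Nlrc5, the transactivator of class I genes, fell by 0.47 ± 0.10 (adjusted p = 0.00288), and Psme2, an activator subunit of the proteasome, rose by 0.25 ± 0.06. Of the negative regulators 4 of 10 (40%) rose and 0 fell, led by Pias1 at 0.44 ± 0.08. Of the 4 other STAT genes tested Stat6 (25% of them) rose, by 0.16 ± 0.06.

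Genes of leukocytes, which also respond to interferon, were lower in clock-positive bulge cells. All 6 T cell markers tested fell, where 18.3% of all genes did. The summed intensity over the 8 T cell markers measured was 940 to 951 on clock-positive and 2175 to 2521 on clock-negative arrays. Among myeloid markers, Langerhans cell genes included, 7 of 9 fell and 1 rose (summed intensity over 12 genes of 2688 to 2807 against 3707 to 3969), and all 5 general leukocyte genes tested fell. Ptprc, which encodes the leukocyte antigen CD45, read 6.03, 6.17 and 6.11 against 6.92, 6.79 and 6.78. Endothelial markers went the other way, with 7 of 8 higher, where 45.2% of all genes were. These marker counts were not set against genes of like level. The part of leukocytes and endothelial cells in the changes of Oas1a, Oas2, Rsad2 and Ifit3 was not tested. Arrays of sorted pools also cannot tell fewer cells of a type from less RNA per cell.

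The second question was what loss of Bmal1 changes in the basal epidermis of mice aged 1 year. No member passed: limma called 0 of 25 in either direction, where 0.193% of the 13956 genes tested were called (0.0788% higher and 0.115% lower). At an unadjusted p under 0.05 stood 3 of the 25 members (Isg20, Psmb9 and Ddx58) and 7.96% of all genes. The median change of the tested members was 0.04, against -0.01 for all genes. All 5 antigen processing genes were nominally higher in the KO, by 0.18 to 0.35, and none of the 5 passed. Arrays of the genotypes did not overlap for 4 of 25 members, against 12.7% of all genes. Psmb9 and Tap1 were higher on every KO array (4.11% of all genes were) and Isg20 and Rsad2 lower (8.56%).

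Psmb9, an immunoproteasome subunit, read 11.33, 11.55 and 11.64 on wild-type arrays 1 to 3 and 11.996, 11.87 and 11.71 on KO arrays 1 to 3. The change was 0.35 ± 0.13 (adjusted p = 0.460). Tap1, from the shared promoter region, read 10.95, 11.27 and 11.26 against 11.56, 11.40 and 11.27, a change of 0.25 ± 0.13 (adjusted p = 0.733). The highest wild-type and lowest KO values of Tap1 nearly touched. Psmb8 read 11.63, 11.77 and 12.05 in wild type and 12.12, 12.08 and 11.93 in the KO, a change of 0.23 ± 0.13 (adjusted p = 0.796). Tap2 read 9.38, 9.57 and 9.43 against 9.84, 9.60 and 9.49, a change of 0.18 ± 0.12 (adjusted p = 0.850). In both genes the genotypes overlapped, as they did for Psmb10 at 0.26 ± 0.20. The mean of the 5 genes was 10.76 ± 0.19 (SD, n = 3) in wild type and 11.02 ± 0.15 in the KO, and KO array 3 (10.86) lay below wild-type array 3 (10.93). Taken relative to each array's median over all genes, the mean of the 5 was 2.69, 2.85 and 2.94 in wild type and 3.21, 3.15 and 3.01 in the KO. On that scale the genotypes did not overlap, with a difference of 0.298 and a pooled SD of 0.117.

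Isg20, an exonuclease that degrades single-stranded RNA, read 8.23, 8.41 and 8.56 in wild type and 8.01, 8.02 and 8.05 in the KO. The KO arrays were close together and all lower, with a change of -0.37 ± 0.11 (adjusted p = 0.367). When all 12 arrays entered 1 fit, Isg20 was the only member called (adjusted p = 0.0459, with 1.84% of all genes called lower). That fit takes 1 spread per gene from both sets, and members varied less on the bulge arrays, as given further on. With a replicate block Isg20 did not pass (adjusted p = 0.8885). Ddx58 read 8.65, 8.45 and 8.89 in wild type and 9.53, 9.15 and 8.85 in the KO, a change of 0.51 ± 0.19 (adjusted p = 0.484) with KO array 3 below wild-type array 3. Oasl2 read 7.78, 7.84 and 8.46 against 8.34, 8.69 and 8.31 (0.42 ± 0.20, adjusted p = 0.679). Rsad2 read 7.07, 6.89 and 7.07 against 6.72, 6.882 and 6.88, lower on every KO array by a narrow gap (-0.19 ± 0.11, adjusted p = 0.793). Oas1a and Trim25, the largest changes in the bulge, were at -0.01 ± 0.11 and -0.02 ± 0.15 here.

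The remaining tested members lay between -0.18 and 0.25 in the KO, each with overlapping genotypes. Among the transcription factors, Irf1 was at 0.25 ± 0.20 and Irf9 at 0.20 ± 0.15, and Stat2 at -0.08 ± 0.16. Ifih1, the other sensor tested, was at -0.18 ± 0.13, opposite in sign to Ddx58. Of the effectors Ifit3 was at 0.17 ± 0.15, Eif2ak2 at -0.13 ± 0.15 and Oas2 at -0.04 ± 0.13. Usp18 was at 0.14 ± 0.17 and Parp14 at -0.10 ± 0.13. Adjusted p-values of these members in limma ran from 0.858 (Ifih1) to 0.994 (Irf7).

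**Figure D5:**
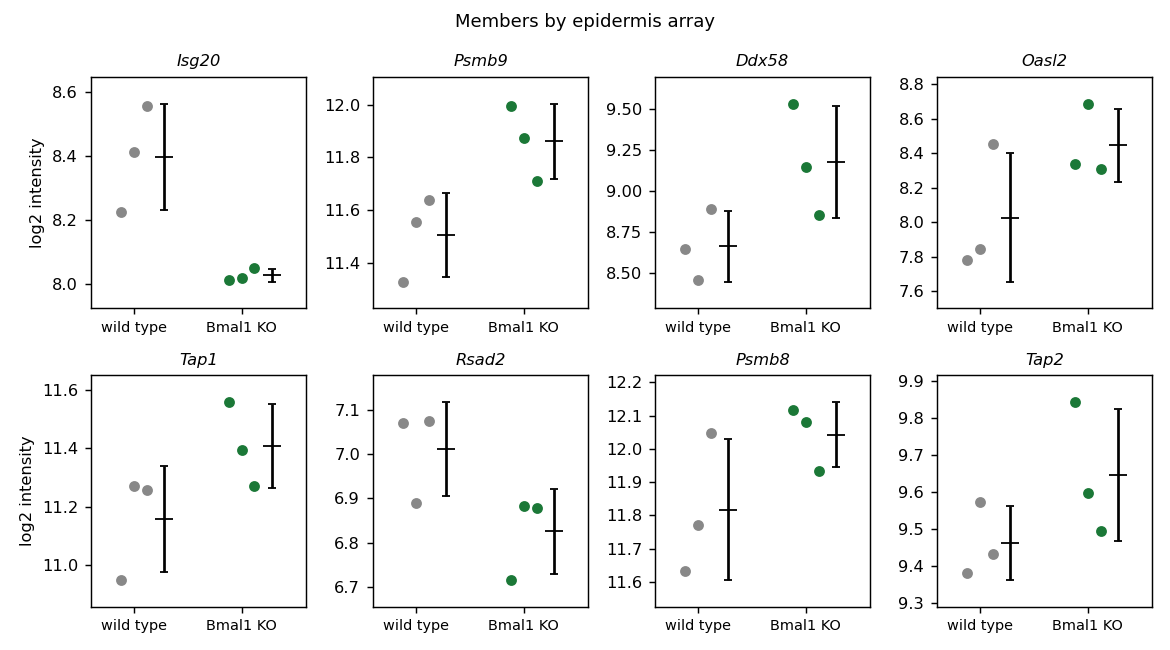
Log2 intensity of the 8 members with the smallest p in the epidermis comparison on each array (points), with group mean and SD as bars; each panel has its own vertical range. Isg20 and Rsad2 lie lower and Psmb9 and Tap1 higher on all 3 KO arrays, and none of the 8 passed the threshold.

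Within groups the IFE arrays varied more than the bulge arrays. The median SD of the tested members within a group was 0.194 in the IFE set, against 0.165 for all genes, and 0.0777 in the bulge set, against 0.0886 for all genes. Psmb10 had the smallest spread of the members in the bulge set (0.0308) and the largest in the IFE set (0.315). Among wild-type arrays, array 3 held the highest value for 18 of the 25 members (72.0%, against 48.3% of all genes). Among KO arrays, array 3 held the lowest for 17 (68.0%, against 63.1% of all genes) and array 1 the highest for 15 (60.0%, against 71.0%).

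The wider pathway did not pass in the KO either: 0 of 84 genes in the pathway lists passed in limma, with 6 of the 84 at an unadjusted p under 0.05, where 7.96% of all genes stood. The largest change among those ranked first was that of Rtp4, an interferon-induced chaperone of receptors, at 0.92 ± 0.27 (adjusted p = 0.335). Ly6e, a surface protein induced by interferon, was at 0.49 ± 0.13 (adjusted p = 0.304). Ifnk, the interferon of keratinocytes, read 8.13, 7.74 and 7.39 in wild type and 7.33, 6.81 and 7.19 in the KO (-0.64 ± 0.21, adjusted p = 0.402), lower on every KO array. The summed intensity of the 8 T cell markers was 1533 to 3959 in wild type and 988 to 1123 in the KO, and that of the 6 general leukocyte genes 1033 to 1669 and 774 to 792. The sums of the 12 myeloid markers overlapped, at 2740 to 6365 and 2662 to 2987. H2-Ab1, an MHC class II gene of that list, read 8.40, 10.34 and 10.87 in wild type and 8.37, 8.42 and 7.44 in the KO, so wild-type array 1 lay with the KO arrays. None of the 4 T cell markers tested passed, and Cd3g, the lowest, was at -2.66 ± 0.42 (adjusted p = 0.0663). The part of these cells in the values of the members was not tested.

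The change from dim to bright reporter was also set against the change from KO to wild type, in 1 fit of all 12 arrays. The sets differ in tissue, age and pool size as well as in the clock. Of 25 members 6 passed, 3 in each direction, or 24% against 16.7% of all genes tested (10.7% higher and 6.02% lower). At an unadjusted p under 0.05 stood 9 members and 37.3% of all genes. The largest difference was that of Ddx58, at 0.69 ± 0.22 (adjusted p = 0.0419), where the change was positive with the bright reporter and negative with wild type. Rsad2 had the smallest p, with a difference of -0.58 ± 0.13 (adjusted p = 0.00904). The number of members that passed was 1 without clock-positive array 1 or 2, clock-negative array 2 or 3 or KO array 2. Of all genes 8.05% to 9.98% passed in those fits. The number was 2 without clock-positive array 3, wild-type array 2 or KO array 1 (8.51% to 12.5% of all genes). It was 9 without wild-type array 3 or KO array 3 (23% and 30.1% of all genes).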

How the data were processed

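Total RNA of the sorted cells was amplified, labelled with biotin and measured on arrays, per the labels' protocols. The deposited log2 values came from RMA according to the submitters' processing notes, with version and settings not given in the sources used here. Of 35512 probe sets 34760 are filled in the bulge and 28853 in the IFE columns. No 2 columns were identical.

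Probe sets with 1 gene symbol (21789) were kept, and those with several (1621) or none listed (12102) were not. Of several probe sets for a symbol, one filled on all 12 arrays was preferred, then the brightest. The lowest 30% of genes by mean were left out of each comparison. limma 3.58.1 (R 4.3.3, lmFit and eBayes, two-sided) was fitted to each set's 6 arrays with Benjamini-Hochberg adjustment over all genes, at a threshold of 0.05, and to all 12 for the third comparison. Values after ± are standard errors unless marked SD. The fit was tested on simulated data. Precision is limited by having 3 arrays in each group.

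The members and lists were chosen with earlier results of these data known. All members could be named, with array values for the 8 largest called changes in bulge cells and the 8 smallest p-values in the IFE, and up to 3 genes of each pathway list. Of the pathway symbols 2 were updated through RefSeq. Alternatives were the dim filter, 3 scalings, averaging of probe sets, 1 fit of all arrays, a replicate block and leaving out each array.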

Additional observations from a re-analysis of the deposited data

Results flagged for a closer look

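In 6 members the change with a bright reporter (clock-positive minus clock-negative) differed from the change with an intact clock (wild type minus KO), by the test of that difference in limma over 13100 genes. The difference was -0.59 for Oas1a (adjusted p = 0.0291), -0.58 for Rsad2 (adjusted p = 0.00904) and -0.43 for Isg20 (adjusted p = 0.0382). It was 0.69 for Ddx58 (adjusted p = 0.0419), 0.56 for Trim25 (adjusted p = 0.0444) and 0.45 for Tap1 (adjusted p = 0.0480). For Oas1a and Trim25 nearly all of it came from the bulge arrays, and for Isg20 from the epidermis arrays. These calls depend on the processing and on single arrays. With a replicate block 0 of the 25 members passed, and 3 passed with no filter, with the lowest 50% of genes left out, after quantile normalization and after cyclic loess. Only 1 passed without clock-positive array 1 or 2, clock-negative array 2 or 3 or KO array 2. Of all genes 8.05% to 9.98% passed there.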

How the results depend on the processing

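The number of members higher in clock-positive cells, 7, was 14 after median centring (64% of all genes) and 4 after cyclic loess (25.3%). It was 1 with all 12 arrays in 1 fit (Trim25, where 25% of all genes rose). Without any 1 array it was 4 to 10, where 36.9% to 50% of all genes rose. It was 4 without clock-positive array 2 or clock-negative array 2. The number lower, 4, was 0 with the lowest 50% of genes left out, which removed those 4 from the test (7.42% of all genes fell). It was 6 with no filter (27.9% of all genes). Without any 1 array it was 4 or 5, where 14.1% to 20.4% of all genes fell. Tap1 turned to -0.0226 after cyclic loess (adjusted p = 0.738). The mean difference over the 32 members in bulge cells, -0.0044, was 0.138 after median centring, 0.0425 after quantile normalization, 0.0203 after cyclic loess and 0.0361 over members above the filter, and -0.0110 to 0.0032 without any 1 array. In the epidermis 1 member was lower with all 12 arrays in 1 fit and 0 members passed under every other alternative, and the mean difference ranged from 0.0225 to 0.131 without any 1 array. The 6 members of the third comparison became 3 with no filter, with the lowest 50% left out, after quantile normalization and after cyclic loess, and 1 to 9 without any 1 array. Of all genes 12.5% to 20% passed under those filters and scalings and 8.05% to 30.1% without any 1 array. With the replicate number as a block 0 members passed in the third comparison, where 4.33% of all genes did. In bulge cells 8 members were then higher and 5 lower, where 47% and 20% of all genes were. In the epidermis 0 passed with the block (0.0215% of all genes). Deviations of same-numbered arrays correlated with r of 0.241, 0.260 and -0.0610 in the bulge set and -0.442, 0.0427 and -0.525 in the IFE set. These values cannot decide whether bright and dim arrays of the same number came from the same mice. The main fits did not take the numbers as pairs. The cause of these shifts was not tested.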
